A study of Homo sapiens with 16 samples.

Results

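The 9 genes described here build the cytoskeleton and the anchoring junctions of basal epithelial cells: KRT5 and KRT14, LAMA3 and LAMB3, ITGA6 and ITGB4, and DSP, DSC3 and DSG3. They were followed through lists of p53 and CTCF peaks made by chromatin immunoprecipitation and sequencing (ChIP-seq). Every peak that lay in one of these genes or within 50 kb of its gene body was taken, which gave 79 of the 76863 peaks in the 8 lists. Per factor, peaks from its 4 libraries that shared 1 bp or more were joined into a site. Near the 9 genes lay 4 of 2980 p53 sites and 28 of 29064 CTCF sites.

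The cells were MCF10A, a non-tumorigenic human mammary epithelial line, as parental cells and after lentiviral delivery of HRAS carrying the G12V mutation, followed by hygromycin selection (G12V cells below). A GFP vector was delivered with the oncogene to follow transduction. Cells of both genotypes received Nutlin, which stabilises p53, before fixation for the p53 samples, whereas no such treatment is given for the CTCF samples. Each factor and genotype had 2 biological replicates. The 8 input samples served the peak caller as controls and have no list of their own. The lists hold no expression values, so the basal identity of the cells could not be checked against markers.

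Keratin 5 and keratin 14 pair into the intermediate filaments of basal cells. These filaments end at hemidesmosomes, where the integrin of ITGA6 and ITGB4 binds the laminin trimer of which LAMA3 and LAMB3 encode the α3 and β3 chains, and at desmosomes, where desmoplakin (DSP) ties them to the desmosomal cadherins DSC3 and DSG3. p53 binds a pair of adjacent half-sites and is activated by stress. CTCF binds a long motif at insulators and domain borders, and the strand of that motif sets the side to which a chromatin loop tends to extend.

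The p53 lists held 1718 and 885 peaks in MCF10A replicates 1 and 2 and 477 and 2619 peaks in G12V replicates 1 and 2. The CTCF lists held 11346 and 20136 peaks in MCF10A and 12004 and 27678 peaks in G12V cells, in the same order. The depth at which peaks were called, recovered from the lists, was between 9.26 and 23.9 M reads for p53 and between 10.7 and 13.5 M reads for CTCF, with G12V replicate 1 the shallowest of the p53 libraries. All 477 peak names of that library carry the word "old" and the number 2 where the sample label has 1. For CTCF the longer lists, those of replicates 2, were called at 10.9 (MCF10A) and 10.7 M reads (G12V), the shorter at 12.1 and 13.5. Absence from a list means no detection in that library, and does not show that a site is unbound. Peak strength is given as fold enrichment over local background at the summit and as rank percentile, where 100 is the peak with the highest −log10 q of its list.

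The sequences that bear on the p53 results are those of the 4 p53 sites. Capitals mark a match to the p53 consensus of 2 adjacent 10-base half-sites, with at most 3 mismatches. The windows lie on the plus strand of hg19, centred on the summit at chr17:39777456-39777605 (KRT14 window), chr18:21463595-21463744 (LAMA3) and chr17:73681142-73681291 (ITGB4, upstream). For the site past the 3′ end of ITGB4, chr17:73781600-73781629, the match and 5 bases on each side are shown.
KRT14 window, intron of KRT17: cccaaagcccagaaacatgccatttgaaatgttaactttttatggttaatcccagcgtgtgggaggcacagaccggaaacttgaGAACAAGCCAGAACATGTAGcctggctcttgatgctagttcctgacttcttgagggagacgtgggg
LAMA3, intron: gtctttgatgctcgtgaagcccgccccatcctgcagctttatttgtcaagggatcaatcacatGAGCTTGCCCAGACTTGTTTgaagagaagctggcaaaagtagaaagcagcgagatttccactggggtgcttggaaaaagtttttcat
ITGB4 window, intron of SAP30BP: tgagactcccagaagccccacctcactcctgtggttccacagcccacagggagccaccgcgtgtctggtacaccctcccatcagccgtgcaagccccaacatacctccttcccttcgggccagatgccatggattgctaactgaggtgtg
ITGB4 window, exon of H3-3B: gatggAAACGTGTCCGTGCGTGCCCatgac
The LAMA3 site held a full match with 0 mismatches, the sites in KRT17 and at H3-3B matched with 3 mismatches each, and the site in SAP30BP held no match. A match was present in 70.4% of all p53 sites and in 0.973% of windows 2000 bp beside them, and 3 of 4 sites near the 9 genes had one.

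For CTCF, 8 of the 10 sites called in all 4 libraries carried the 12-base core of the CTCF motif with at most 1 mismatch within 150 bp centred on the summit, and these 8 matches are shown because the strength of these sites is compared between the cell types below. Each line runs 5′ to 3′ on the strand of the motif, with the core in capitals.
LAMB3, chr1:209801158-209801197, minus strand: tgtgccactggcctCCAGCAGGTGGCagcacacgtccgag
LAMB3, chr1:209775571-209775610, plus strand: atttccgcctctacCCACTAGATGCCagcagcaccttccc
LAMB3, chr1:209750229-209750268, plus strand: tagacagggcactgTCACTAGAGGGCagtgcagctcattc
LAMB3, chr1:209742954-209742993, plus strand: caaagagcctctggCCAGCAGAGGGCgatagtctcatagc
LAMB3, chr1:209739578-209739617, minus strand: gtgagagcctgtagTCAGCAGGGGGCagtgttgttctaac
ITGB4, chr17:73746120-73746159, minus strand: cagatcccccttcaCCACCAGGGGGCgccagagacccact
LAMA3, chr18:21498572-21498611, minus strand: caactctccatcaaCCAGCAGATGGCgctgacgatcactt
ITGA6, chr2:173326934-173326973, minus strand: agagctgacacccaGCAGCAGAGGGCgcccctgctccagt
The shared sites of KRT14 and DSG3 had no match in this window. Over all shared CTCF sites 67.5% had the core. Of the 28 CTCF sites near the 9 genes 19 had it (67.9%, exact 95% interval 47.6 to 84.1), beside 52.1% of all CTCF sites and 1.22% of windows beside them. The AP-1 motif, TGACTCA or TGAGTCA, was found at 0 of 4 p53 sites and 1 of 28 CTCF sites, against 6.71% and 2.23% of all sites of these factors.

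The 4 p53 sites near these genes were each found in 1 library. They amounted to 2.74 sites per Mb of the windows, against 1.19 in the windows of all protein-coding genes. MCF10A replicates 1 and 2 had 2 and 0 p53 peaks near the 9 genes, and G12V replicates 1 and 2 had 0 and 2. The means of both groups were 1 ± 1.41 (SD, n = 2), a difference of 0 (exact two-sided permutation test, p = 1, where the smallest p this design allows is 0.333). Called in exactly 1 library were 48.5% of all p53 sites and 4 of 4 here. No site near the 9 genes was called in all 4 libraries, against 11.1% of all p53 sites, and none was specific to one cell type, meaning called in both of its libraries and in neither of the other, against 2.18% (MCF10A) and 1.41% (G12V) of all p53 sites. A p53 site lay near 3 of 9 genes (KRT14, LAMA3 and ITGB4), where 18.9% of the 20163 protein-coding genes had one. A site of all 4 libraries lay near 0 of 9, where 2.4% of protein-coding genes had one.

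**Figure D1:**
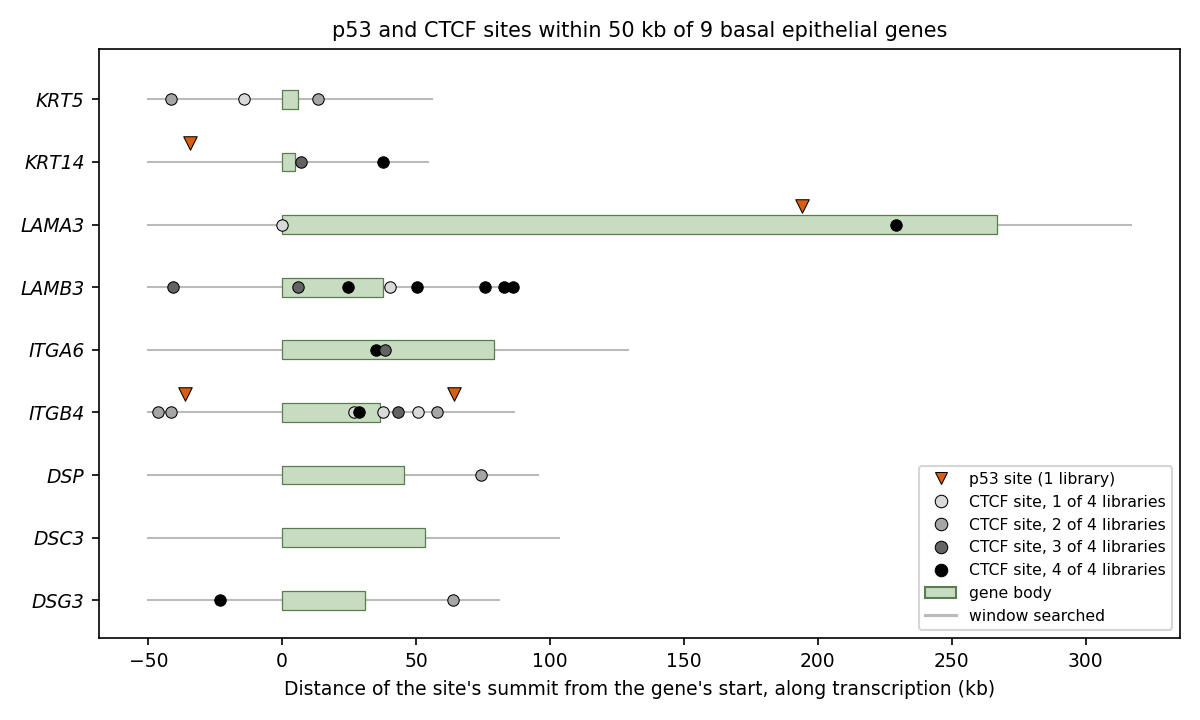
Position of the p53 sites (triangles) and CTCF sites (circles, darker with more libraries) along each gene, in kb from the gene's start in the direction of transcription; green bars are gene bodies and grey lines the windows searched. LAMB3 and ITGB4 hold 8 CTCF sites each, DSC3 holds none, and the 4 p53 sites fall in the windows of KRT14, LAMA3 and ITGB4.

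Among the keratins, the p53 site in the KRT14 window lay at chr17:39777436-39777724, 34.4 kb upstream of the start of KRT14 and inside an intron of KRT17, a keratin induced in activated epidermis. Its summit was 3.30 kb downstream of the start of a full-length KRT17 transcript and 78 bp upstream of a shorter retained-intron transcript. It was called in MCF10A replicate 1 with a fold enrichment of 11.5 and a −log10 q of 19.5, rank 640 of 1718 (percentile 62.8), the highest fold of the 4 sites, and in no other library. No p53 site lay near KRT5, whose nearest one was 338 kb away. KRT14, KRT16 and KRT17 have near-identical copies on the same chromosome, and reads that aligned to several places were discarded, so binding in stretches shared by the copies was not measured.

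In LAMA3 the p53 site lay at chr18:21463530-21463809, in an intron. It was 194 kb past the start of the long transcript, 10.7 kb past the start of the short transcripts that begin inside the gene, and 1067 bp before another internal start. MCF10A replicate 1 had it with a fold enrichment of 7.07, rank 1259 of 1718 (percentile 26.8), and the other 3 libraries did not. The site with the full motif was therefore the weaker of the pair in this library. LAMB3 and ITGA6 had no p53 site within 50 kb, and their nearest lay 184 and 284 kb away.

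ITGB4 had both p53 sites of the G12V cells, and neither lay in ITGB4 itself. The upstream one, chr17:73681057-73681370, lay 36.2 kb before the start of ITGB4 in an intron of SAP30BP and had a fold enrichment of 6.84 in G12V replicate 2 (rank 1020 of 2619, percentile 61.1). The other, chr17:73781480-73781735, lay 27.7 kb past the end of ITGB4, in an exon of H3-3B and within the gene UNK. Its summit was 18 bp upstream of the start of one H3-3B transcript, and its fold enrichment was 4.96 (rank 2039, percentile 22.2). H3-3B encodes a replication-independent histone H3, and 11 of its 13 transcripts start 5.72 to 6.22 kb from the summit. Counted over all 4 p53 sites, 1 lay nearest to a start of its own gene and 3 to a start of another.

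The desmosomal genes had no p53 site within 50 kb. The nearest was 218 kb from DSP, 561 kb from DSC3 and 235 kb from DSG3. The desmosomal cadherins form one cluster of 7 genes on chromosome 18 (DSC3, DSC2, DSC1, DSG1, DSG4, DSG3 and DSG2), from 28569331 to 29128971, and these 560 kb held 0 p53 sites.

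CTCF peaks near the 9 genes numbered 13 and 23 in MCF10A and 12 and 27 in G12V replicates 1 and 2, or 18 ± 7.07 against 19.5 ± 10.6 (mean ± SD, n = 2), a difference of 1.5, less than either SD (exact two-sided permutation test, p = 1). In both cell types replicate 2 had the higher number. These peaks made up 0.115% and 0.114% of the MCF10A lists and 0.1000% and 0.0976% of the G12V lists. The groups did not overlap on this scale, which was added after the data were seen (p = 0.333, the smallest possible), but the exact 95% counting intervals of the 4 libraries did, the lowest bound being 0.0517% and the highest 0.196%. CTCF sites lay near 8 of 9 genes, and 85.5% of protein-coding genes had one. A site of all 4 libraries lay near 6 of 9, against 51.6% of protein-coding genes.

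**Figure D2:**
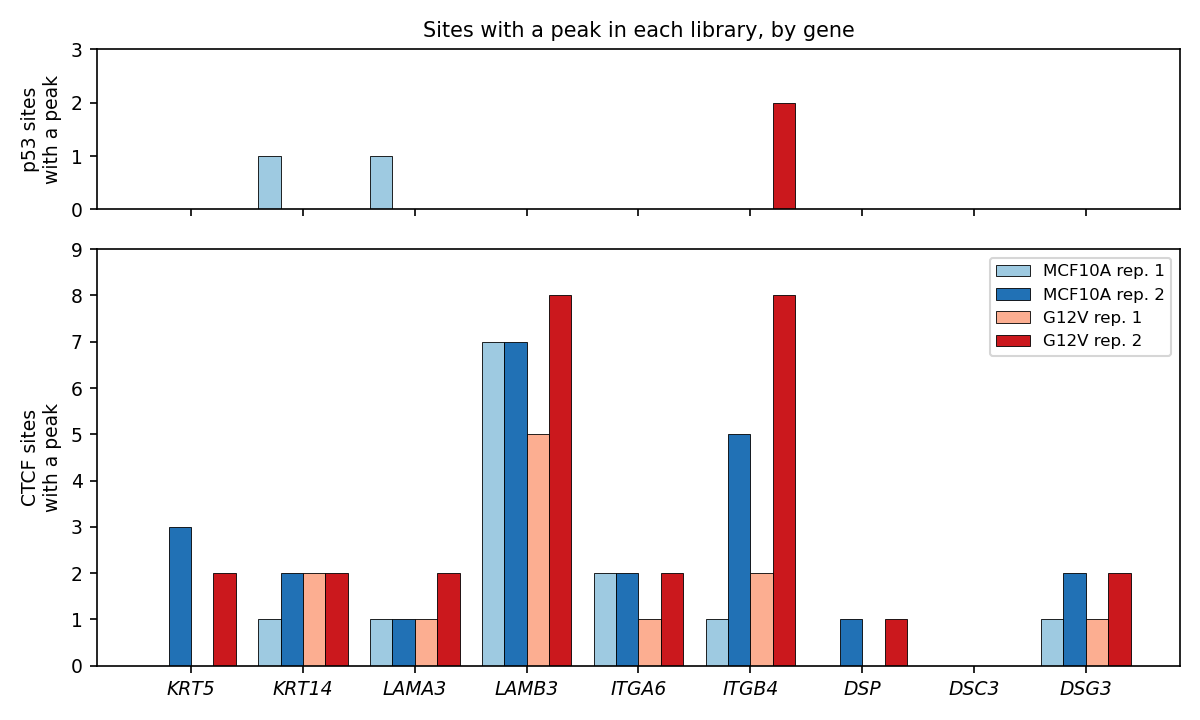
Number of p53 sites (top) and CTCF sites (bottom) with a peak in each of the 4 libraries, by gene; blue bars are MCF10A and red bars G12V replicates. ITGB4 has a CTCF peak at 1, 5, 2 and 8 sites in the order of the bars, and LAMB3 at 7, 7, 5 and 8.

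Of the 28 CTCF sites, 10 were called in all 4 libraries (35.7%, exact 95% interval 18.6 to 55.9, counting error only), beside 27.5% of all CTCF sites. In 3 libraries 5 sites were called, in 2 libraries 7, and in exactly 1 library 6, where 29.7% of all CTCF sites were in 1 library. No site was specific to MCF10A, against 0.261% of all CTCF sites, and none to G12V cells, against 3.33%. The longest list, G12V replicate 2, had a peak at 27 of the 28 sites. Both replicates 2 and no replicate 1 had a peak at 7 of them (25%, and 19.1% of all CTCF sites). By position 14 sites lay in introns and 2 in exons of any protein-coding gene, 2 only in genes not coding for protein, and 10 were intergenic. Within the gene body of a member lay 7, and 12 were nearer to a start of their own gene than to that of any other protein-coding gene.

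LAMB3 and ITGB4 stood out by number, with 8 CTCF sites each in windows of 0.138 and 0.136 Mb, and 3.85% of protein-coding genes had 8 or more. This is 58.2 and 58.6 sites per Mb, against 19.2 in the windows of the 9 genes together and 12.7 in those of all protein-coding genes. The loci differed in how many libraries shared their sites: 5 of the 8 LAMB3 sites were called in all 4 libraries and 1 of the 8 ITGB4 sites was. At ITGB4, 3 sites were called in G12V replicate 2 and in no other library, and 3 in both replicates 2.

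At LAMB3 the shared sites ran from an intron of the gene to 86.2 kb past its start, beyond its 3′ end and across CAMK1G, a calcium-dependent kinase gene. The site 82.8 kb from the start, the highest-ranked of them in both G12V libraries, had rank percentiles of 95.3 and 99.5 in MCF10A and 98.7 and 99.5 in G12V cells, with folds of 8.23, 18.3, 10.5 and 17.8. It was among the strongest CTCF peaks of every list, and the groups overlapped. The site at 75.5 kb had percentiles of 97.7 and 99.6 in MCF10A and 93.8 and 94.6 in G12V cells, a difference of −4.48. The site at 50.2 kb, in an intron of CAMK1G, had 96.2 and 93.7 against 70.7 and 88.9, a difference of −15.1. In both of these each G12V value was below each MCF10A value (exact permutation p = 0.333 for each, the smallest possible). The folds overlapped at both, with 9.01 and 19.9 against 9.44 and 11.9 at 75.5 kb and 8.49 and 11.6 against 6.36 and 9.85 at 50.2 kb. The groups overlapped at the intronic site 24.6 kb from the start (62.6 and 94.0 against 86.0 and 64.4) and at the outermost one, 86.2 kb away (56.1 and 89.4 against 45.9 and 81.6). Over the 5 sites the median difference was −4.48, with a lower mean in G12V cells at 4, where the median over all shared CTCF sites was 3.63. Around LAMB3, outside its window, the median difference was −1.84 over 17 shared sites within 1 Mb and −0.70 over 98 within 5 Mb.

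Read along the chromosome, the outermost of the 5 shared sites at LAMB3 had its core on the minus strand, the next 3 on the plus strand and the one inside LAMB3 on the minus strand. Nearest to the start of LAMB3, at 5.75 kb, lay an intronic site of 3 libraries with percentiles of 9.01 and 45.8 in MCF10A and 25.4 in G12V replicate 2, whose core was on the plus strand, and the site of 3 libraries 40.7 kb upstream of the start had it on the minus strand. The window ends close to these sites: the outermost shared one lay 48.6 kb from the gene body, and the next one outside, 59.6 kb away, was G12V-specific. Another G12V-specific site lay 80.0 kb away on that side, and a site of all 4 libraries 95.2 kb away on the other.

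At ITGB4 the shared site lay in an intron, 28.7 kb from the start of the gene. In MCF10A its rank percentile was 7.46 and 43.5, and in G12V cells 83.0 and 94.0, so both G12V values were above both MCF10A values, a difference of 63.0 (exact permutation p = 0.333, the smallest possible). Of all shared CTCF sites, 99.6% had a difference at or below this one. The folds, 4.87 and 9.65 against 7.78 and 16.4, overlapped between the groups. The neighbourhood moved the same way. Of the 28 other shared CTCF sites within 1 Mb of ITGB4, outside its window, 46.4% had both G12V percentiles above both MCF10A ones and 0 had them below, and of the 89 within 5 Mb 47.2% and 0 did, where 20.9% of all shared sites had them above and 9.54% below. The median difference of these sites was 13.4 and 17.6 percentage points. The part of this regional shift in the value at ITGB4 was not tested. The ITGB4 site nearest to the start, at 26.7 kb, was called in G12V replicate 2 alone with a fold of 7.13 (percentile 42.1).

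ITGA6 had 2 CTCF sites, both in introns of the gene and 34.9 and 38.5 kb from its start. The first was shared, with percentiles of 1.87 and 80.8 in MCF10A and 59.0 and 80.3 in G12V cells, and it was close to the bottom of the list of MCF10A replicate 1. The second was called in both MCF10A libraries and in G12V replicate 2, with folds of 6.82, 10.5 and 10.3.

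LAMA3, the longest of the genes, had 2 CTCF sites in a window of 0.367 Mb, or 5.45 per Mb. One summit lay 42 bp upstream of the gene's start and was called in G12V replicate 2 alone (fold 8.10, rank 20771 of 27678). The shared one lay in an intron 229 kb from the start, with percentiles of 32.8 and 85.8 in MCF10A and 28.3 and 96.3 in G12V cells. It followed the replicate number more than the cell type, with both replicates 2 above both replicates 1. The shared sites of ITGA6 and DSG3 and those of LAMB3 at 82.8 and 86.2 kb had the same order, and the remaining shared sites near the 9 genes did not. The medians over all shared CTCF sites had it too (72.9 and 80.0 over 60.1 and 59.8).

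KRT14 had one shared CTCF site, intergenic and 37.5 kb from its start toward KRT19, with percentiles of 87.7 and 77.0 against 64.8 and 97.3, and one of 3 libraries 7.17 kb from its start, just past the 3′ end of the gene, with folds of 10.5 in MCF10A replicate 2 and 10.4 and 12.2 in G12V cells. KRT5 had 3 CTCF sites and none was shared. They lay 13.2 kb downstream and 14.2 and 41.7 kb upstream of its start and were called in MCF10A replicate 2, and 2 of them also in G12V replicate 2, the strongest of these at percentile 51.7. The nearest shared site was 118 kb from KRT5.

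Of the desmosomal genes, DSP had 1 CTCF site, DSC3 none and DSG3 2. The DSP site lay 74.3 kb from its start, past the 3′ end, and ranked near the bottom of both replicates 2 (percentiles 2.11 and 9.16, folds 4.79 and 4.93). DSC3 had none, as did 14.5% of protein-coding genes, and its nearest sites lay 99.1 kb below and 199 kb above it on the chromosome. DSG3 had a shared site 23.2 kb upstream of its start, in the antisense transcript gene DSG1-AS1, with percentiles of 45.1 and 84.1 in MCF10A and 67.1 and 97.0 in G12V cells, and a weaker one of both replicates 2 in an intron of DSG2. The whole cadherin cluster of 560 kb held 3 CTCF sites, 1 of them shared.

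**Figure D3:**
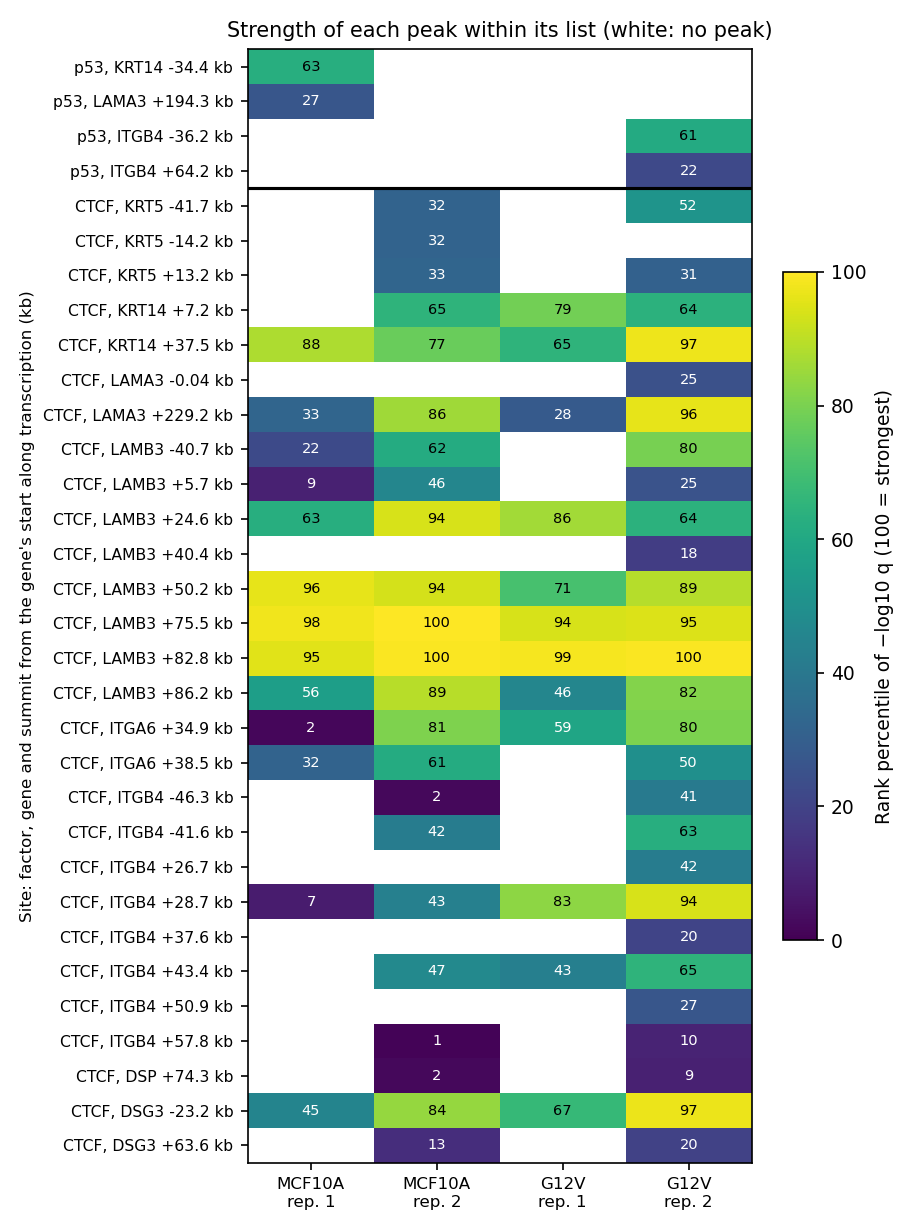
Rank percentile of −log10 q (colour and number, 100 the strongest of its list) of each site near the 9 genes in the 4 libraries of its factor; rows give the factor, the gene and the distance of the summit from the gene's start in kb, and white means no peak. Each p53 site (top 4 rows) has a value in 1 library, and the CTCF sites of LAMB3 at 75.5 and 82.8 kb are at percentile 93.8 or higher in all libraries.

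Over the 10 shared CTCF sites the MCF10A libraries had a median rank percentile of 59.4 and 87.6 and the G12V libraries one of 68.9 and 94.3, a difference of 8.13 (exact two-sided permutation test, p = 0.667). Taken site by site, the median of the 10 differences was 0.20, with 5 above 0 and 5 below, where the median over all shared sites was 3.63 and 4652 of the 8006 were above 0. The groups overlapped, and the difference was smaller than the SD of either group (19.9 and 17.9, n = 2). Over all 8006 shared CTCF sites the medians were 60.1, 72.9, 59.8 and 80.0 in the same order, a difference of 3.42. The longer lists, those of replicates 2, had the higher medians. With lists of equal length the difference over the shared sites near the 9 genes was 4.10. Both G12V values were above both MCF10A values at 1 of the 10 sites, in ITGB4, against 20.9% of all shared sites, and below at 2, both at LAMB3, against 9.54%. At the other 7 sites they overlapped.

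**Figure D4:**
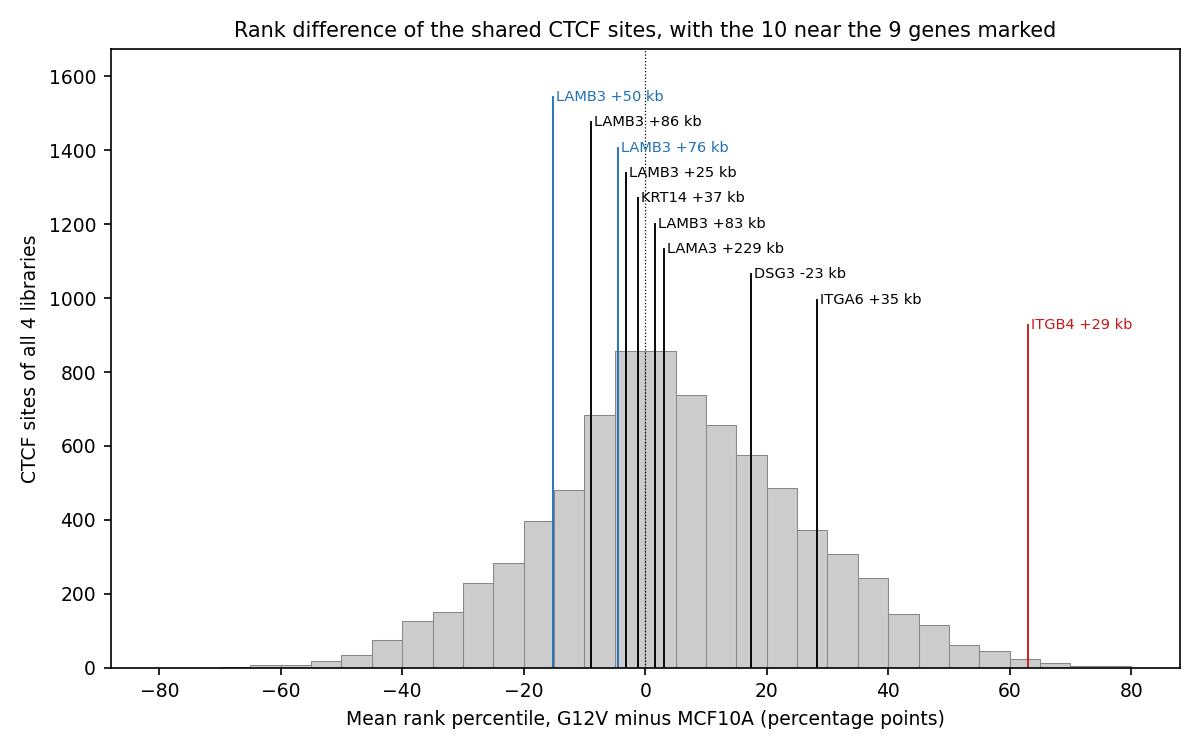
Histogram of the difference in mean rank percentile between G12V and MCF10A cells (percentage points) over the 8006 CTCF sites of all 4 libraries, with lines for the 10 sites near the 9 genes, named by gene and distance from its start. The ITGB4 line (red, both G12V values higher) stands at 63.0 near the right end, and the LAMB3 lines lie between −15.1 and 1.66, 2 of them blue for both G12V values lower.

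The lists differ in length, so the 9 genes were also read from the strongest peaks alone, with lists of equal length per factor. Of the strongest 477 p53 peaks none in any library lay near the 9 genes. In the full p53 lists 0.116% and 0% of peaks did in MCF10A and 0% and 0.0764% in G12V replicates 1 and 2. With shares this low, none among 477 peaks does not show that strong p53 peaks are rarer at these genes. Of the strongest 11346 CTCF peaks, 13 and 14 in MCF10A and 12 and 14 in G12V cells lay near these genes at 16 sites. Of these sites 9 were called in all 4 libraries (31.3% of all CTCF sites in these lists were). The shared ITGB4 site was then missing from MCF10A replicate 2, where its rank was 11383. On this footing 2 sites were specific to MCF10A, against 3.67% of all sites, and 0 to G12V cells, against 3.54%. These were the LAMB3 site 5.75 kb from the start, at ranks 10325 and 10919 of both MCF10A lists, and the second ITGA6 site, at ranks 7745 and 7755. The full list of G12V replicate 2 had both, at ranks 20650 and 13893.

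In the same way 28 other genes of the same structures were counted. Of these 8 had a p53 site (28.6%), with 12 sites in all and none called in all libraries, and 10 of the 12 were called in G12V replicate 2 alone, where 18.9% of protein-coding genes had a p53 site and 38.5% of all p53 sites were called in that library alone. The partners of the hemidesmosome and laminin had a site at 3 of 6 genes, those of the desmosome at 3 of 12, other keratins of stratified epithelium at 2 of 6, where KRT16 and KRT17 shared the site described above, and keratins of simple epithelium at 0 of 4. ITGA3, the α3 integrin chain that also binds this laminin, had 3 p53 sites within the gene in G12V replicate 2, the strongest with a fold of 17.9 at rank 326 (percentile 87.6). None of these 3 held a match to the p53 consensus. PLEC, which encodes the plectin that links keratin to the hemidesmosome, had 4 p53 sites in G12V replicate 2, with folds from 5.53 to 8.99. The strongest was intergenic and nearest to a start of EPPK1, and the others lay in introns of PLEC. Those with folds of 8.99 and 5.53 matched with 3 mismatches, and those with 7.27 and 7.46 had no match. The site near CD151, a tetraspanin of the hemidesmosome, lay in an exon of PIDD1 and had no match. It was called in MCF10A replicate 1 (fold 7.07) and G12V replicate 2 (fold 7.31), the one partner site found in both cell types. The desmosomal plaque genes PKP1, PKP3 and PPL had 1 p53 site each in G12V replicate 2 (folds 3.98, 6.22 and 7.33). The PKP3 site lay in an intron of ANO9. The PKP1 site had no match, and those of PKP3 and PPL matched with 2 and 3 mismatches. CTCF sites lay near 25 of the 28 (89.3%, and 85.5% of protein-coding genes), and 33 of their 85 sites were shared, as were 27.5% of all CTCF sites. The 3 without one were DSC1, DSC2 and DSG1, in the cadherin cluster.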

How the data were processed

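ChIP-seq of p53 and CTCF was done in MCF10A and G12V cells, with 2 replicates each. The authors aligned reads of each library with Bowtie, kept unique alignments, and called peaks with MACS against an input at default settings. The submitters' processing notes name hg19. Each deposited list gives a score, fold enrichment (a ratio), −log10 p, −log10 q and summit, per library. The authors' own comparison merged the peaks of all replicates and was not used here. Their −log10 values and folds were used to rank and describe peaks.

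No peak ended past a GRCh37 chromosome. Genes came from GENCODE release 44 mapped to GRCh37. The lists give no read totals. Fold and p-value were solved for the background, and its lowest common value gave the calling depth for a mappable genome of 2.7 Gb and the narrowest peak as fragment length. Simulated data were recovered.

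Motifs were searched in 150 bp centred on the summit of each site's highest-ranked peak. Groups came from sample titles and were compared by exact permutation tests over 6 assignments (Python 3.11.15, scipy 1.17.1, pysam 0.24.0). Intervals are Clopper-Pearson at 95% and cover counting error alone. The genes, the gene lists and the rule for named sites (all p53 sites, and per gene the nearest, strongest and cell-specific CTCF sites) were chosen with earlier results of these data known. The surroundings of ITGB4 and the shares of lists were added after seeing values. Alternatives were other windows, thresholds, overlaps, motif settings, equal lists, leaving out each library and a replicate block. One gene of the partner lists is not reported here and was left out of their counts.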

Additional observations from a re-analysis of the deposited data

How the results depend on the processing

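The comparisons rest on 2 libraries per group, so no exact test could pass 0.05, and peaks missing from short lists limit what a zero shows. Genes with a p53 site fell from 3 to 1 with a window of 10 kb and to 0 in lists of equal length, and leaving out 1 library gave 1 to 3, with 1 without MCF10A replicate 1. The share of all protein-coding genes was not counted in these settings, so whether the falls are particular to the 9 genes was not tested. The share of CTCF sites called in all libraries rose from 35.7% to 56.25% in equal lists, where fewer peaks of the longer lists entered. The difference in CTCF peaks, 1.5, became −0.5 in equal lists. Leaving out 1 library gave −6 (without G12V replicate 2) to 9 (without G12V replicate 1), with −3.5 without MCF10A replicate 1. The rank percentile difference of shared CTCF sites, 8.13, became 4.10 in equal lists and −1.60 with −log10 q of at least 5. Without 1 library it ran from −4.73 (without MCF10A replicate 1) to 24.4 (without G12V replicate 1), with −4.55 without G12V replicate 2. The cause of the last reversals was not tested. The share of CTCF sites with the motif became 21.4% with no mismatch allowed, and that of p53 sites 100% with a window of 10 kb, where 1 site was left, and 25% with 1 mismatch fewer. No share over all sites was computed with fewer mismatches allowed. With a window of 100 kb the CTCF peak difference was 8.5. In all, 66 settings kept the direction or stayed within the spread, 6 changed the size of a result and 6 reversed its direction. With the replicate number as a replicate block the p53 and CTCF peak differences stayed at 0 and 1.5 (exact sign-flip permutation p = 1 for both) and the percentile difference at 8.13 (exact p = 0.5, the smallest possible). Deviations of same-numbered libraries correlated at 0.042 over shared CTCF sites and −0.048 over shared p53 sites. These values do not cover sites missing from a library, and 19.1% of all CTCF sites were in both replicates 2 and no replicate 1. Whether same-numbered samples shared more than a number was not tested. No p53 site near the 9 genes was called in all libraries, so the planned rank comparison of p53 gave no value, and the share of p53 sites in all libraries could not be computed in equal lists.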
